A study of Mus musculus with 4 samples.

Results

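The genes described here are 38 NF-κB response genes, chosen by name from what they encode and found among the 36601 genes listed in both reactions. Earlier results of these data were known when they were chosen. They were measured in human CD45+ cells sorted from MDA-MB-231 tumors, a human triple-negative breast carcinoma line, grown in the mammary fat pad of MISTRG mice. MISTRG mice carry human genes for M-CSF, GM-CSF and IL-3, which support human myeloid cells, and all 14 were irradiated as pups and engrafted with human CD34+ cells, the untreated mice included. The 7 maraviroc mice received this drug in the drinking water over the last days before the tumors were taken, and the 7 untreated mice did not. Reaction 1 held 4 untreated and 3 maraviroc mice and reaction 2 held 3 untreated and 4 maraviroc mice, told apart by hashtag antibodies. Only sorted human leukocytes were measured, so mouse stroma is absent by design, and carcinoma cells entered only where they escaped the sort.

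NF-κB is a family of dimeric transcription factors that resting cells hold in the cytoplasm through IκB inhibitors. Signals from TNF, interleukin 1, Toll-like and CD40 family receptors lead to degradation of the inhibitors, and the released dimers switch on inflammatory genes. Among these targets are the inhibitors themselves, which end the response, as well as survival genes, cytokines and adhesion molecules. Tumor macrophages, monocytes and dendritic cells are known for wide use of this pathway.

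The 29120 barcodes of reaction 1 had 2764 UMIs at the median, while the 13582 of reaction 2 had 10204.5, and 136 barcode sequences occurred in both. Limits on genes and mitochondrial UMIs kept 27645 barcodes of reaction 1 and 10161 of reaction 2. Of these, hashtag calls gave 11917 and 7900 cells to 1 mouse, a smaller share in reaction 1, and only these cells were used. Cells were placed in classes by UMIs of marker genes, none of which is among the 38, and 5476 and 1424 cells stayed unassigned. Markers of other cells in macrophages differed between the reactions for some lists only. The summed level of 6 NK cell markers there was 155 to 543 counts per 1000000 (CPM) in the mice of reaction 1 and 25.5 to 40.4 in those of reaction 2, and T cell markers stood at 66.1 and 16.8 over all macrophages, while B cell markers (38.5 and 50.6) and plasmacytoid dendritic cell markers (98.7 and 125) were lower in reaction 1 and carcinoma markers (79.0 and 77.4) were close. The macrophage gate itself capped the T cell and NK cell markers other than GNLY, by the same limit in both reactions. It did not cap the B cell, plasmacytoid dendritic cell or carcinoma markers in this way, so the lists are not alike. Whether free RNA or doublets gave these UMIs was not tested. Levels are given below in CPM, the UMIs of a gene over all UMIs of the same cells, and are compared between cells and not between genes.

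The 38 genes did not share one pattern across the cell classes. Each was ranked over 17 classes, and 26 of the 38 had the same highest class in both reactions. Genes outside the 38 were not ranked, so this count and those below have no share over all genes to be read against. The ranks also take no account of counting error, which is larger in classes of few cells. Mature dendritic cells, gated on LAMP3 with CCR7, FSCN1, CCL19, CCL22 and CCL17, were highest for 13 genes in each reaction, 11 of them the same. Macrophages with IL1A or CCL20 UMIs, called inflammatory macrophages here, were highest for 11 and 10, with 6 in common. IL1A and CCL20 are themselves known NF-κB targets, as are CCR7, CCL19, CCL22 and CCL17, so that both classes were selected in part on genes of the same pathway. They held few cells, 42 and 73 mature dendritic cells and 65 and 26 inflammatory macrophages. Mast cells were few as well, 64 and 59, with 1691 and 5033 UMIs per cell at the median. They led for 3 and 4 genes, monocytes for 3 and 4, T cells for 2 and 3 and NK cells for 2 and 1.

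**Figure D1:**
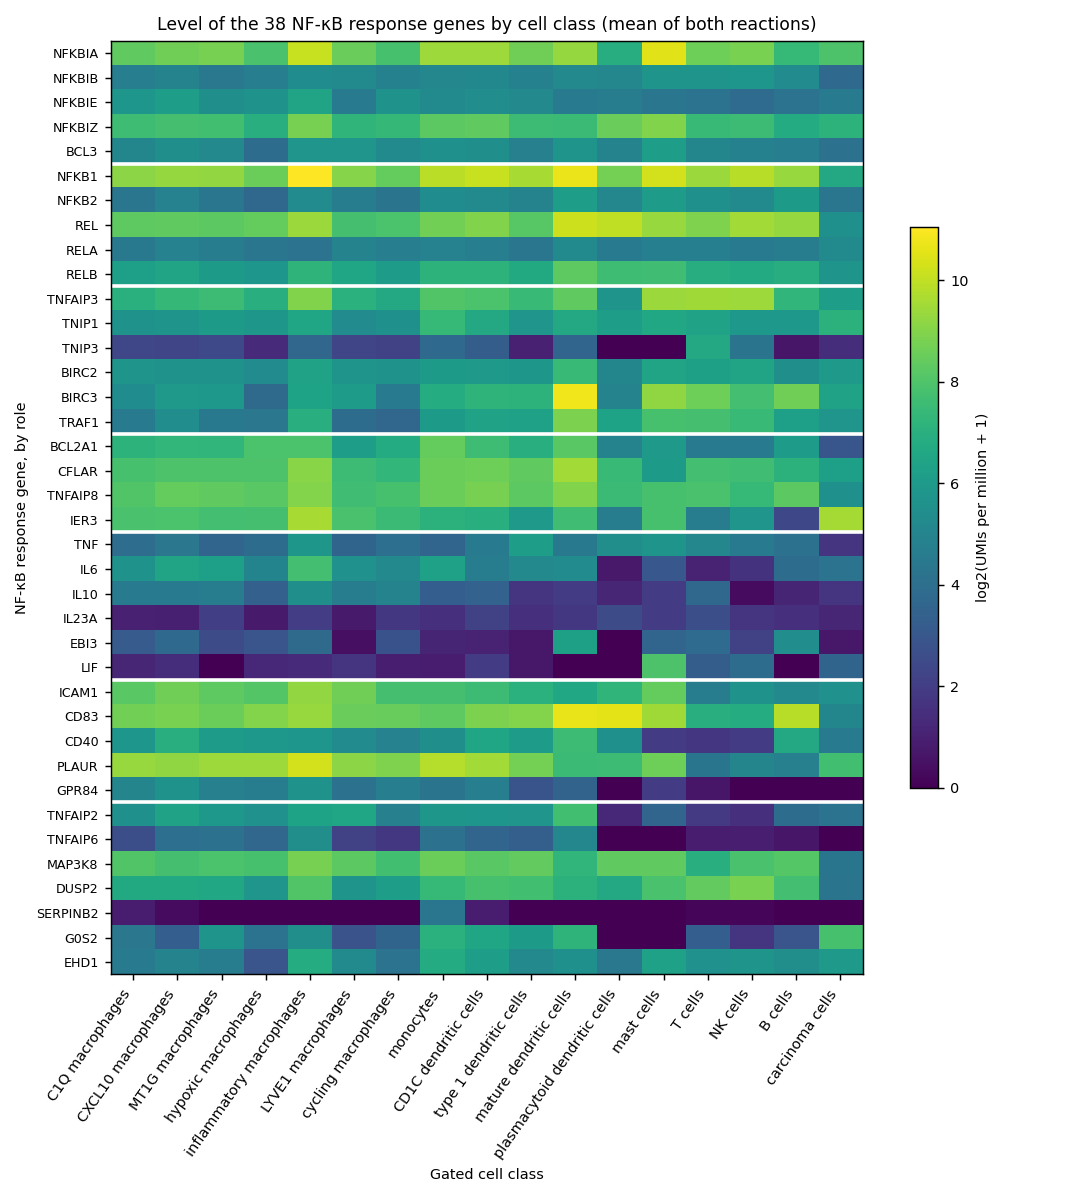
Level of each gene (rows, in order of role, separated by white lines) in each gated class (columns) as log2 of CPM plus 1, averaged over both reactions. Mature dendritic cells stand out for BIRC3, with 1551 and 2067 CPM in reactions 1 and 2, inflammatory macrophages for NFKB1 and IL6, mast cells for LIF, and T and NK cells for TNFAIP3.

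Among the inhibitors, NFKBIA, which encodes IκBα, was highest in mast cells, at 1418 CPM in reaction 1 (95% exact Poisson interval 1250 to 1603) and 1589 in reaction 2 (1460 to 1725). These intervals and those below cover counting error only. Inflammatory macrophages followed with 1242 and 990, monocytes held 736 and 649, and all macrophages 416 and 327. NFKBIZ, an atypical IκB protein that acts in the nucleus, was highest in inflammatory macrophages in reaction 1 (493) and in mast cells in reaction 2 (543), and its order therefore differed between the reactions. NFKBIE was highest in inflammatory macrophages in both (88.5 and 82.3), BCL3 in mast cells (66.5 and 73.1), and NFKBIB never passed 56.9.

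The subunits RELB and REL were highest in mature dendritic cells in both reactions. RELB, the subunit of the non-canonical pathway, reached 282 and 341 CPM in mature dendritic cells, against 148 and 134 in CD1C dendritic cells. REL stood at 1047 and 1292 there, and plasmacytoid dendritic cells came next with 762 and 1236. NFKB1, the precursor of p50, was highest in inflammatory macrophages in reaction 1 (2294) and in mature dendritic cells in reaction 2 (1950), where inflammatory macrophages at 1920 were close behind. RELA, the most widely used activating subunit, lay between 19.4 and 39.2 in every class of reaction 1 and between 12.2 and 35.99 in reaction 2, the narrowest range of the subunits. NFKB2 was highest in B cells in reaction 1 and in mature dendritic cells in reaction 2, at 69.0 and 82.0.

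BIRC3, a ubiquitin ligase of TNF receptor complexes, was highest in mature dendritic cells. Its level in mature dendritic cells was 1551 in reaction 1 (1433 to 1677) and 2067 in reaction 2 (1986 to 2150), and the 6 mice with at least 10 such cells ranged from 1028 to 2850. Mast cells were next with 554 and 613, while hypoxic macrophages held 14.9 and 11.6. TRAF1 and BIRC2, partners of BIRC3 in the same complexes, were also highest in mature dendritic cells, at 341 and 579 for TRAF1 and 132 and 226 for BIRC2. TNFAIP3, which encodes the ubiquitin-editing inhibitor A20, was instead highest in T cells (668 and 760) and NK cells (625 and 753). TNIP3, an A20-binding protein, was highest in T cells at 75.9 and 127, and TNIP1 in monocytes at 168 and 172.

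Of the survival genes, BCL2A1, an anti-apoptotic member of the BCL2 family, was high in myeloid cells, at 357 and 334 CPM in monocytes, and low in T cells (24.1 and 22.9) and NK cells (25.6 and 19.8). CFLAR, the caspase 8 inhibitor, was highest in mature dendritic cells (681 and 758), and TNFAIP8 in inflammatory macrophages (435 and 573). IER3 was highest in carcinoma cells in reaction 1 (819, and 673 in reaction 2) and in inflammatory macrophages in reaction 2 (756, and 790 in reaction 1). The carcinoma cells are few, 46 and 43, and held the leukocyte gene PTPRC at 150 and 9.04.

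The cytokines were found in fewer cells. IL6 was highest in inflammatory macrophages, at 229 (194 to 268) and 201 (156 to 256), and at least 1 UMI was found in 16.9% of all macrophages of reaction 1 and 31.4% of those of reaction 2. IL6 was found in 0.66% and 1.07% of T cells, at median depths of 6227 and 7178 UMIs against 3718 and 12824 in macrophages. NK cells gave 1.30% and 1.93%, and B cells, few in number, 5.13% and 6.31%. The gates of these classes removed barcodes with many myeloid marker UMIs, so none of them sets the background for macrophages. LIF was highest in mast cells, at 138 (89.6 to 204) and 351 (293 to 419). LIF UMIs were found in 21.9% and 57.6% of mast cells, against 0.69% and 0.97% of macrophages. NK cells were next in level, at 12.95 and 14.93 CPM, with UMIs in 6.28% and 9.44% of cells. Carcinoma cells held LIF UMIs in 4.35% and 16.28% of cells. EBI3, a subunit of IL-27 and IL-35, was highest in mature dendritic cells (46.6 and 107) and then B cells (39.4 and 44.2). TNF was highest in inflammatory macrophages in reaction 1 (96.1) and in type 1 dendritic cells in reaction 2 (94.6), IL10 in inflammatory macrophages (54.9 and 33.5), and IL23A never passed 6.91.

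The surface proteins CD83 and CD40 were highest in antigen-presenting cells. CD83, a maturation marker, reached 1605 and 1688 in mature dendritic cells and 1487 and 1573 in plasmacytoid dendritic cells, and B cells held 986 and 849. CD40, the receptor for T cell help, was also highest in mature dendritic cells (213 and 164). PLAUR, the urokinase receptor, was highest in inflammatory macrophages (1235 and 1283) and then monocytes (898 and 904), and ICAM1 in inflammatory macrophages (683 and 518). GPR84 was highest in CXCL10 macrophages in reaction 1 and in inflammatory macrophages in reaction 2, at 54.4 and 51.8.

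In the remaining group, SERPINB2, which encodes plasminogen activator inhibitor 2, was at 14.8 and 23.6 CPM in monocytes, at most 1.14 in any other class and at 0 UMIs in 11 and 13 of the classes. DUSP2, a phosphatase of MAP kinases, was highest in NK cells (444 and 452), TNFAIP2 in mature dendritic cells (184 and 235), and G0S2 in carcinoma cells (148 and 306). MAP3K8 was highest in monocytes in reaction 1 and in inflammatory macrophages in reaction 2 (391 and 491), EHD1 in inflammatory macrophages in reaction 1 and in monocytes in reaction 2 (134 and 107), and TNFAIP6 in mature dendritic cells in reaction 1 and in inflammatory macrophages in reaction 2 (36.8 and 57.9).

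Class differences were tested on UMIs summed per mouse and class, with the mouse as a block, by edgeR's quasi-likelihood test with Benjamini-Hochberg adjustment over all genes. Most members were higher in monocytes than in macrophages. In the 14 mice, 25 of 37 tested members rose in monocytes and 9 fell, where 28.1% and 33.2% of all tested genes did so. All 5 subunits and all 6 feedback genes were among those that rose, as did 4 of 5 inhibitors and 6 of 7 of the remaining induced genes, whereas no cytokine rose and 4 of 5 surface proteins fell. SERPINB2 had only 8 UMIs in all macrophages of each reaction, against 109 and 334 in monocytes, and its level in monocytes was 35.96 times as high in reaction 1 (95% exact interval 17.6 to 85.4) and 69.9 times in reaction 2 (35.04 to 163). Further log2 differences were those of G0S2 (2.82 ± 0.20 SE), EHD1 (2.08 ± 0.08) and TNIP1 (1.69 ± 0.08). Macrophages were higher for EBI3 (-2.62 ± 0.29), IL10 (-1.35 ± 0.17), IER3 (-0.94 ± 0.10) and GPR84 (-0.82 ± 0.10), and for TNF (-0.71 ± 0.19, adjusted p = 0.00237). NFKBIA was higher in monocytes by 0.91 ± 0.08, BCL2A1 by 1.31 ± 0.06 and BIRC3 by 1.20 ± 0.09. IL6 did not pass the test (0.19 ± 0.16, adjusted p = 0.319), and LIF had too few UMIs to be tested.

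Mature and CD1C dendritic cells could be compared in 5 mice, 1 of reaction 1 and 4 of reaction 2. Here 11 of 32 tested members rose and 6 fell, against 18.5% and 16.6% of all genes. The 6 became 3 without maraviroc mouse 2 or untreated mouse 1 of reaction 2 and with 1 marker UMI more in the gate. With 1 mouse left out the 17 calls in either direction became 12 to 16. All genes called were then 1600 to 2269 of 5396 to 7421, where the 5 mice gave 2254 of 6439. BIRC3 was higher in mature cells by 3.72 ± 0.23 (adjusted p = 7.8e-07), TRAF1 by 2.06 ± 0.41, TNFAIP6 by 1.93 ± 0.65, CD83 by 1.81 ± 0.24 and RELB by 1.59 ± 0.26. EBI3 was nearly absent from CD1C dendritic cells, with 3 and 4 UMIs in all, and its level in mature cells was 33.2 times as high in reaction 1 (95% exact interval 9.77 to 175) and 117 times in reaction 2 (44.7 to 437). Lower were PLAUR (-2.10 ± 0.55), TNF (-1.94 ± 0.69, adjusted p = 0.0476), ICAM1 (-1.20 ± 0.27), MAP3K8 (-1.14 ± 0.27) and NFKBIZ (-0.75 ± 0.22). The share of cells with a TNF UMI did not go the same way in both reactions. It was 16.67% of mature and 8.75% of CD1C cells in reaction 1, at median depths of 7050 and 12812 UMIs. In reaction 2 it was 9.59% and 15.56%, at 15472 and 16451 UMIs. The list of 16 other targets, with the interleukin 1 genes and CXC chemokines, counted 1 higher and 6 lower of 11 tested.

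T cells and NK cells were compared in 14 mice. Here 16 of 31 tested members passed the test, 9 of them higher in T cells and 7 lower, against 26.3% of all genes in either direction. IL10 held 94 and 276 UMIs in T cells and 1 UMI in NK cells of each reaction, a ratio of levels of 33.2 (5.82 to 1326) and 63.9 (11.4 to 2534). TNIP3 was higher in T cells by 2.30 ± 0.30, G0S2 by 2.16 ± 0.41, EBI3 by 1.99 ± 0.37, BIRC3 by 0.84 ± 0.11 and TNF by 0.76 ± 0.21. ICAM1 (-0.97 ± 0.23), IER3 (-0.90 ± 0.26), MAP3K8 (-0.79 ± 0.13) and PLAUR (-0.75 ± 0.22) were higher in NK cells, together with NFKB1 (-0.41 ± 0.08) and REL. TNFAIP3, highest in both classes, did not differ beyond its error between them (0.10 ± 0.06, adjusted p = 0.244). The T cell gate also held cells with NK markers, at a summed 5026 and 2872 CPM, and the part of such cells in these differences was not tested.

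Macrophage states were set against C1Q macrophages without state markers. A state needed a minimum of marker UMIs per cell, and cells in the states held more UMIs. In reaction 1 the medians were 5269.5 (CXCL10), 10812 (hypoxic) and 5270.5 (MT1G) against 2847 (C1Q). In reaction 2 they were 12700.5, 11710 and 11705.5 against 11417. The part of this depth was not tested, nor whether the gate genes share regulation with the members. CXCL10 macrophages, in 13 mice, were higher for 8 of 34 tested members and lower for 1, against 5.42% and 3.66% of all genes. TNFAIP6 was higher by 1.42 ± 0.33, CD40 by 1.20 ± 0.11 (adjusted p = 1.47e-08), TNFAIP2 by 0.86 ± 0.12 and IL6 by 0.74 ± 0.16, and G0S2 was lower (-1.03 ± 0.30). No member passed as lower by DESeq2, with 1 marker UMI more in the gate or in reaction 2 alone. In hypoxic macrophages, gated on SLC2A1, ADM and HILPDA in 7 mice, BCL2A1 (0.86 ± 0.20) and CD83 (0.59 ± 0.17) were higher and NFKBIZ (-0.89 ± 0.25) and NFKB1 (-0.81 ± 0.21) lower, 2 and 2 of 32 tested against 4.26% and 2.93%. These 4 calls, where 623 of 8657 genes were called, became 1 without untreated mouse 4 of reaction 1 (362 of 8512). They became 2 without maraviroc mouse 1 or untreated mouse 2 of reaction 2 (472 of 8459 and 444 of 8419). Without any 1 of the others they became 3 (471 to 588 genes). Of the 15 immediate early and heat shock genes, 7 were higher in hypoxic macrophages, and their part was not tested. MT1G macrophages, in 6 mice, gave 0 calls of 33 in either direction, against 0.391% and 0.648%, and 0 calls by DESeq2. At an unadjusted p under 0.05 there were 3 of 33, against 11.3% of all genes in either direction. Inflammatory macrophages reached 10 cells in 2 mice only and could not be tested.

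**Figure D2:**
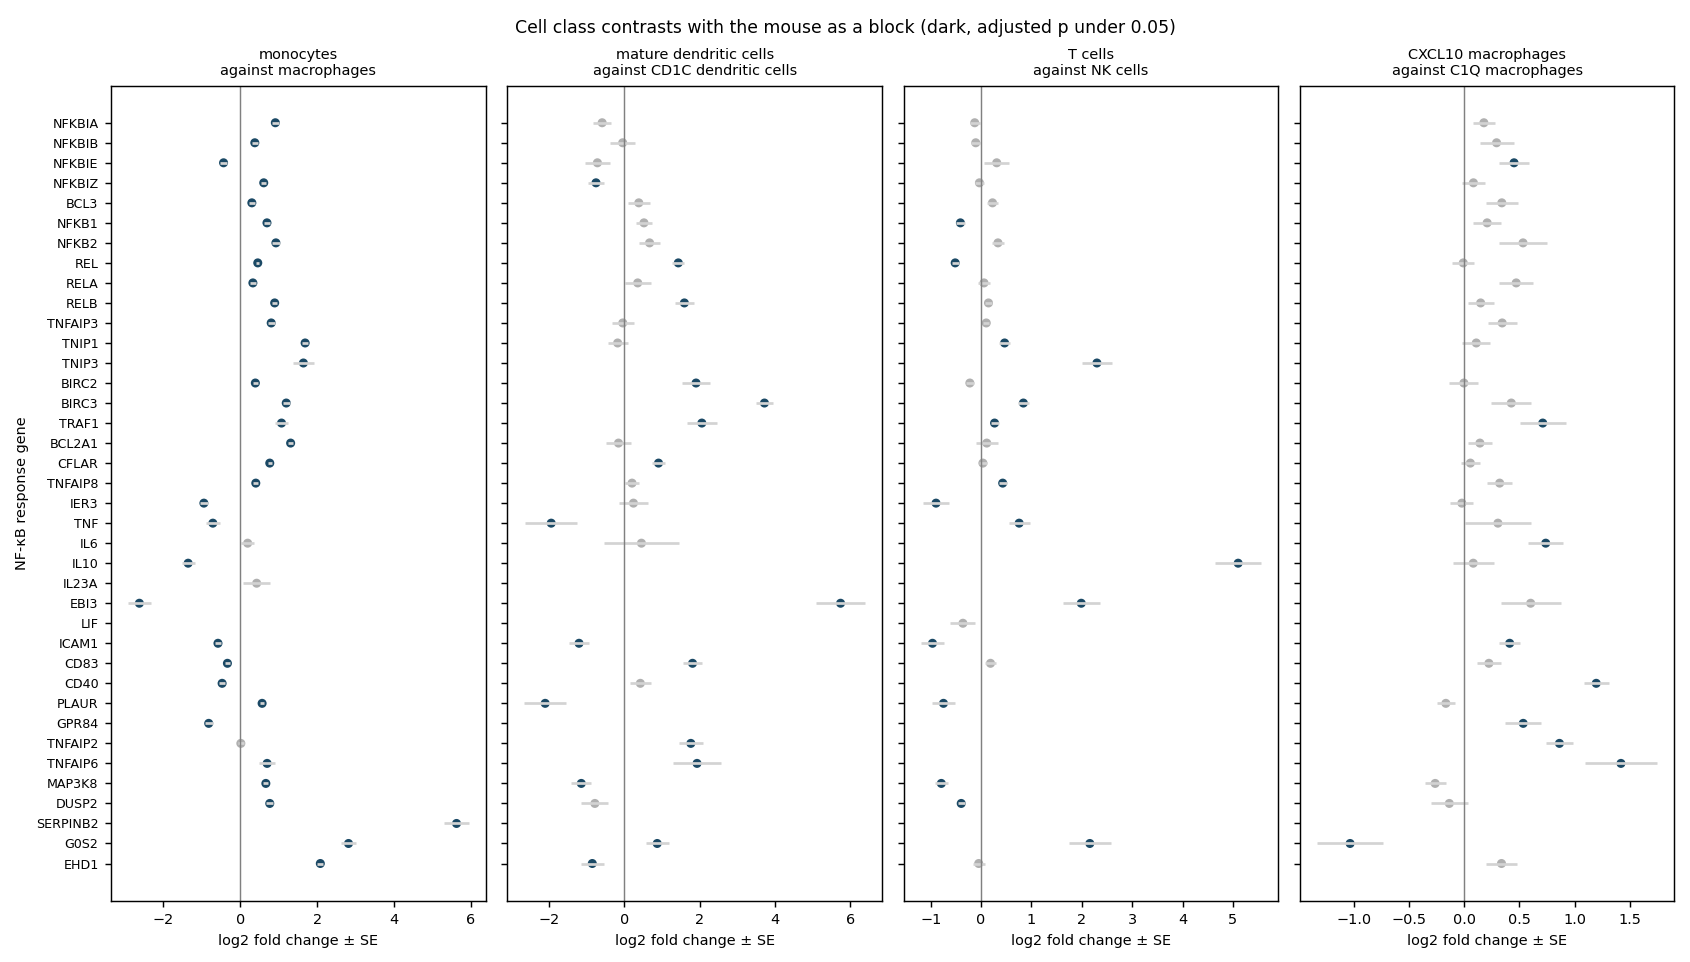
Log2 fold change with its SE (x axis) of each tested gene (rows) in 4 class comparisons, with dark points for adjusted p under 0.05. G0S2 lies at 2.82 in monocytes against macrophages, BIRC3 at 3.72 in mature against CD1C dendritic cells and CD40 at 1.20 in CXCL10 against C1Q macrophages. The points farthest right, SERPINB2, EBI3 and IL10 in the first 3 panels, are fitted against few UMIs.

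The treatment comparison asked whether these genes differed between maraviroc and untreated mice, and it was made within each reaction because the reactions differed in depth and in the levels of NK and T cell markers in macrophages. In monocytes of reaction 1 most members were lower with maraviroc. TNFAIP3 was at 324, 398, 316 and 273 CPM in the untreated mice and at 171, 194 and 158 in the maraviroc mice. It fell by 0.95 ± 0.14 (SE) on the log2 scale (edgeR adjusted p = 0.0494), and the groups did not overlap. NFKBIZ was at 346, 377, 369 and 348 against 220, 243 and 200, and fell by 0.75 ± 0.11 (adjusted p = 0.0494), again without overlap. These 2 of 35 tested members compare with 0.0348% of all tested genes, which is 3 genes, and the third is IL1B, named here after its values were seen. Without single mice the number of members past the threshold was 0 or 1, where 0 to 2 of all genes passed. These calls therefore rest on the full set of mice. IL23A, LIF and EBI3 had too few UMIs in monocytes to be tested, and IL23A, LIF and SERPINB2 in macrophages.

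NFKBIA did not pass the threshold in these monocytes (-0.72 ± 0.12, adjusted p = 0.0604), with 739, 773, 886 and 916 in the untreated mice and 551, 494 and 509 in the maraviroc mice. IER3, an early survival gene, was at 171, 332, 156 and 210 against 72.7, 77.6 and 108 (-1.34 ± 0.25, adjusted p = 0.142). Both sets of mice were apart for either gene. BIRC3 (-0.90 ± 0.22), NFKB1 (-0.77 ± 0.16), IL6 (-1.03 ± 0.24) and TNF (-0.90 ± 0.39) leaned the same way without passing the adjusted threshold. RELB (-0.03 ± 0.12), CD83 (-0.09 ± 0.17) and BCL2A1 (-0.13 ± 0.14) were close to 0.

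Over the whole set in these monocytes, 33 of 35 log2 values were negative with a median of -0.52, against -0.0028 over all genes, and 20 members were lower at an unadjusted p under 0.05, where 3.25% of all genes were. By role these 20 were 3 inhibitors, 2 subunits, 4 feedback genes, 3 survival genes, 3 cytokines, 1 surface protein and 4 of the others. Of the 16 other NF-κB targets, 11 were lower at that level, while of 12 tested kinases and ubiquitin enzymes of the pathway none was and their median was -0.0082. The 38 genes summed to 7727, 8524, 7634 and 7766 CPM in the untreated mice and to 6388, 5696 and 5285 in the maraviroc mice.

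Macrophages of reaction 1 leaned the same way and no member passed the adjusted test by edgeR (0.00% of genes did). DESeq2 called 5 members, where 24 of 11526 genes were called. By edgeR without the filter on low counts 13 members passed, where 206 of 24137 genes did. At an unadjusted p under 0.05, 11 of 35 members were lower, against 3.51% of genes, and 32 were negative with a median of -0.35. Counted in either direction, the 11 became 18 without untreated mouse 4, against 956 of 11417 genes. Without any 1 of the other mice they became 10 to 13, against 667 to 849 of 11351 to 11863 genes. BIRC3 was at 67.2, 60.1, 55.1 and 68.4 in the untreated mice and 33.6, 26.9 and 37.7 in the maraviroc mice (-0.95 ± 0.13, adjusted p = 0.145), and the groups were apart. IL6 was at 83.9, 88.2, 66.0 and 65.5 against 46.0, 23.6 and 43.8 (-0.99 ± 0.20, adjusted p = 0.376). NFKBIA (-0.90 ± 0.19), TNFAIP3 (-0.95 ± 0.21) and DUSP2 (-0.67 ± 0.12) leaned alike, and CD83 (-0.11 ± 0.13) and BCL2A1 (-0.23 ± 0.13) less.

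Untreated mouse 2 of reaction 1 stood high in macrophages: its NFKB1 was 1418, where the other untreated mice had 569 to 673 and the maraviroc mice 426 to 464. Inflammatory macrophages were 9.64% of its macrophages, against 1.13% to 2.45% in the other untreated mice and 0.274% to 0.867% in the maraviroc mice of that reaction. Without this mouse the median over the members was -0.22, and in C1Q macrophages alone, from which inflammatory macrophages were set apart, it was -0.31. In C1Q macrophages 9 of 34 members had an unadjusted p under 0.05 in either direction, against 413 of 9785 genes. IL1A and CCL20 summed to 45.3 to 101 CPM in untreated and 7.04 to 32.1 in maraviroc monocytes of reaction 1, apart as well, and their part in the monocyte result was not tested.

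**Figure D3:**
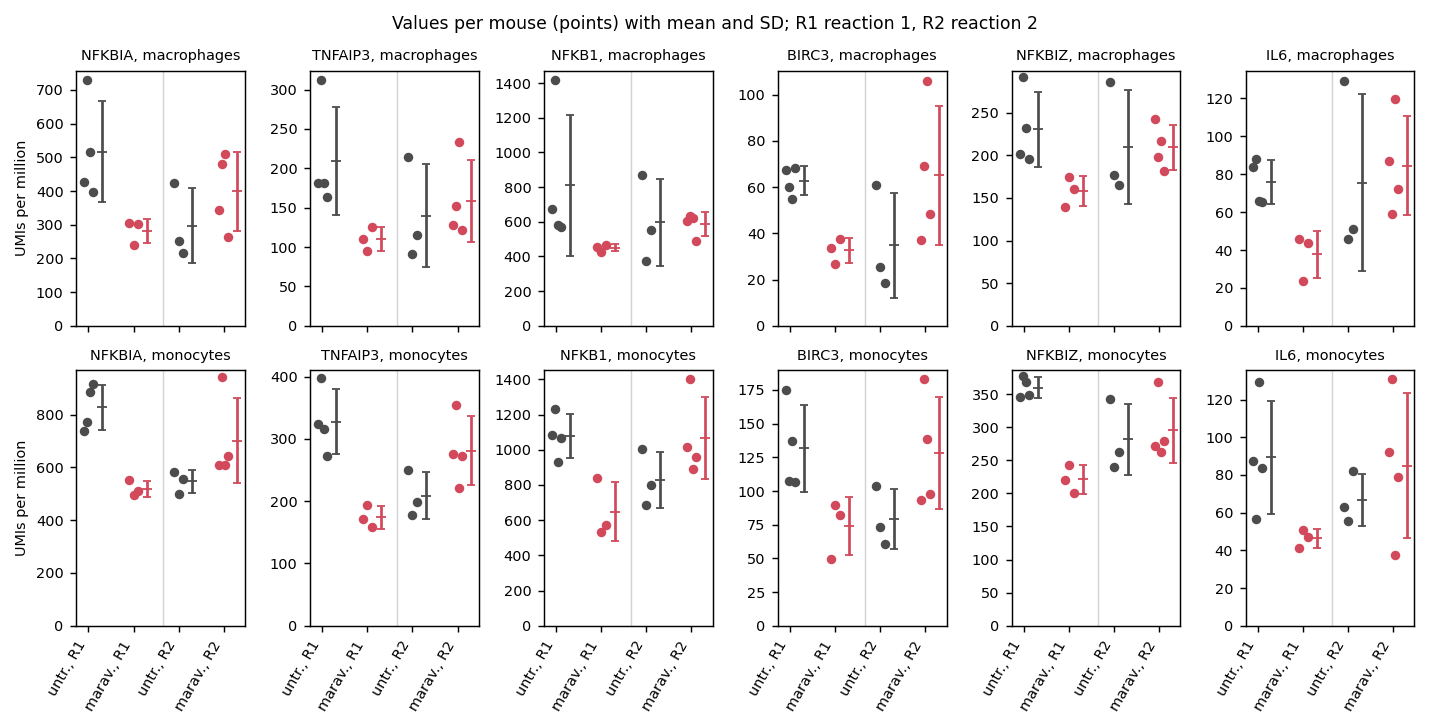
CPM (y axis, from 0) of 6 genes per mouse (points) with mean and SD, in macrophages (top) and monocytes (bottom), by treatment and reaction. In monocytes of reaction 1 the untreated mice lie above the maraviroc mice for NFKBIA, TNFAIP3 and NFKBIZ, while in reaction 2 the maraviroc mice lie above the untreated mice for NFKBIA (610 to 945 against 501 to 585).

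In reaction 2 most log2 values had the other sign. In monocytes 33 of 35 were positive with a median of 0.29 and 10 were higher at an unadjusted p under 0.05, against 2.45% of genes, but no gene passed the adjusted test by edgeR (0.00%). DESeq2 called no member, and edgeR without the filter on low counts 7, where 101 of 22567 genes were called. Counted in either direction, the 10 compare with 477 of 10125 genes. They became 3 without untreated mouse 2 or 3, against 398 of 10328 and 377 of 10423 genes. Leaving out maraviroc mouse 2 gave 4, against 393 of 9941. Leaving out maraviroc mouse 1, 3 or 4 gave 12, 15 and 11. The genes were then 621 of 9964, 484 of 9961 and 444 of 10042. Without untreated mouse 1 the members at that level became 17, against 734 of 10467 genes. The median became 0.19 without untreated mouse 2 or maraviroc mouse 2. TNFAIP8 was at 379, 294 and 300 in the untreated and at 408, 534, 407 and 448 in the maraviroc mice (0.51 ± 0.14, adjusted p = 0.987). NFKBIA was at 585, 501 and 555 against 611, 945, 610 and 642 (0.40 ± 0.16, adjusted p = 0.987), and the groups were apart for both genes. TNFAIP3 overlapped, at 250, 177 and 198 against 276, 355, 220 and 272. BIRC3 (0.73 ± 0.25), TNIP3 (1.08 ± 0.32) and CFLAR (0.33 ± 0.12) had the lowest p-values after TNFAIP8, and maraviroc mouse 2 was highest for NFKBIA, NFKB1 and BIRC3.

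In macrophages of reaction 2, 5 of 35 members were higher at an unadjusted p under 0.05, against 2.49% of genes, the median was 0.15 and no gene passed the adjusted test by edgeR (0.00%) and no member by DESeq2. RELB was at 75.9, 67.6 and 54.3 against 98.5, 102, 100.4 and 76.7 (0.54 ± 0.15, adjusted p = 0.987), and BCL3 at 32.7, 29.3 and 33.2 against 42.1, 56.1, 54.5 and 37.2 (0.59 ± 0.16). Untreated mouse 1 stood apart from the other untreated mice, with NFKB1 at 869 against 372 and 553, and without it the median was 0.51. Then 19 of 35 members had an unadjusted p under 0.05 in either direction, against 851 of 12122 genes. Without any 1 of the other mice this count was 4 to 7, against 345 to 706 of 11709 to 12106 genes. Without untreated mouse 2 it was 4, against 356 of 12106 genes, and the median was 0.09. In C1Q macrophages alone the median was 0.41, with 13 of 32 members at an unadjusted p under 0.05 in either direction, against 434 of 9430 genes. The 15 immediate early and heat shock genes, read as signs of cell handling, summed to 4470 to 4875 in untreated and 4817 to 5329 in maraviroc macrophages of reaction 2, and their part was not tested. In monocytes of reaction 1 the same sum overlapped, at 4456 to 5106 and 4265 to 5122. Of the 15 genes, 3 were lower there at an unadjusted p under 0.05, against 3.25% of genes, and their part was not tested.

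**Figure D4:**
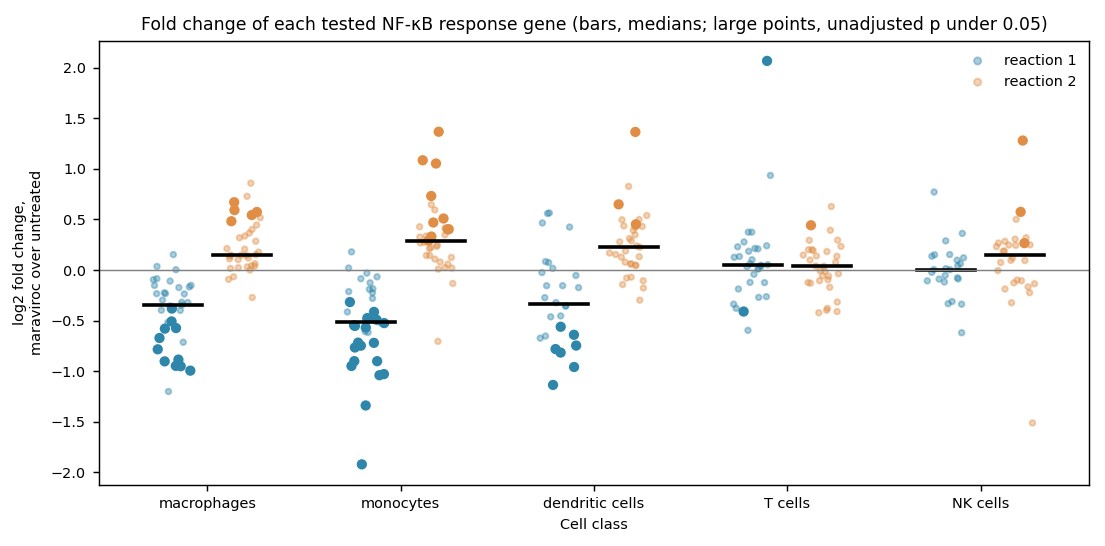
Log2 fold change, maraviroc over untreated (y axis), of each tested gene in 5 classes (x axis) and 2 reactions (colors), with black bars at the medians and large points for unadjusted p under 0.05. The medians lie at -0.52 and 0.29 in monocytes of reactions 1 and 2, and at -0.35 and 0.15 in macrophages.

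**Figure D5:**
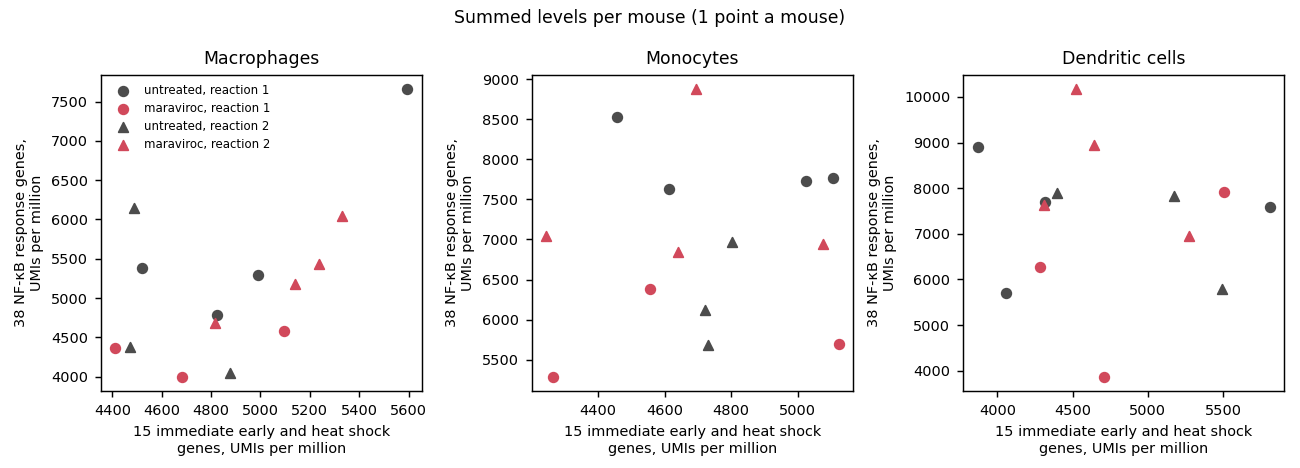
Summed level of the 38 genes (y axis) against that of 15 immediate early and heat shock genes (x axis), both in CPM, 1 point per mouse, in 3 classes. In monocytes the untreated mice of reaction 1 lie at 7634 to 8524 and the maraviroc mice at 5285 to 6388 on the y axis. Their values on the x axis overlap, and the part of those 15 genes was not tested.

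The other genes of the pathway were counted at an unadjusted p under 0.05, to be read against the shares of all genes in the same fit. Lower with maraviroc in reaction 1 were 3.51% of genes in macrophages, 3.25% in monocytes and 4.74% in dendritic cells, and higher in reaction 2 were 2.49%, 2.45% and 2.90%. Of the 16 other targets, among them the interleukin 1 and CXC chemokine genes, 9 were lower in macrophages of reaction 1 (median -0.54), 11 in monocytes (-0.70) and 9 of 11 in dendritic cells (-1.10), while 5 of 16, 4 of 16 and 1 of 13 were higher in reaction 2. Receptors and adaptors counted 1 of 16, 3 of 14 and 4 of 11 lower in reaction 1, and 3 of 16, 4 of 16 and 0 of 14 higher in reaction 2. Kinases and ubiquitin enzymes counted 0 lower of 13, 12 and 9 in reaction 1, with 1 higher in macrophages (3.51% of genes), and 0 of 13, 0 of 13 and 3 of 12 higher in reaction 2. The 15 handling genes counted 2 lower in macrophages and 3 in monocytes of reaction 1, and 4 higher in dendritic cells (5.07% of genes). In reaction 2 they counted 4 higher and 1 lower in macrophages (2.28% of genes lower) and 0 in the other classes. No test compared the lists.

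Dendritic cells, with 15 to 81 cells per mouse, gave wider errors. In reaction 1, 7 of 28 tested members were lower at an unadjusted p under 0.05, against 4.74% of genes in that direction, with none past the adjusted test by edgeR (0.00% of genes) or by DESeq2. Counted in either direction, the 7 became 3 without untreated mouse 3 and 4 without untreated mouse 2 or maraviroc mouse 2. The median of -0.34 became -0.18 without maraviroc mouse 2, -0.22 without untreated mouse 2 and -0.55 without maraviroc mouse 1. The lowest p-values were those of ICAM1 (-0.82 ± 0.26, adjusted p = 0.336), TNFAIP8 (-0.56 ± 0.20), BCL2A1 (-0.78 ± 0.28) and EHD1 (-1.14 ± 0.42), the last between -1.88 and -0.73 with 1 mouse left out. ICAM1, the ligand of LFA-1, was at 130, 155, 156 and 217 against 94.6, 71.7 and 112. In reaction 2, 3 of 33 were higher at that level, against 2.90% of genes, and none passed the adjusted test by edgeR (0.00%) or DESeq2. In either direction the 3 became 6 without untreated mouse 2, against 324 of 8954 genes. The median of 0.23 became 0.12 without maraviroc mouse 2 and 0.14 without untreated mouse 3. BIRC3 was at 438, 283 and 72.2 against 794, 696, 370 and 829 (1.36 ± 0.47, adjusted p = 0.988), and RELB at 153, 139 and 127 against 186, 220, 144 and 190. Mature dendritic cells, the class highest for BIRC3, were 6.67% to 17.3% of the dendritic cells of untreated and 9.62% to 36.1% of those of maraviroc mice in reaction 2, and their part in this difference was not tested.

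In T cells and NK cells no member passed the adjusted test in either reaction by edgeR (0.00% of genes in each) or by DESeq2. At an unadjusted p under 0.05, T cells of reaction 1 gave 1 member higher and 1 lower of 30, against 2.12% of genes in either direction. They were IL10 (2.07 ± 0.68), at 4.63, 0, 3.05 and 8.83 against 42.8, 6.12 and 17.9, and NFKBIB (-0.41 ± 0.18). NK cells of reaction 1 gave 0 of 24, against 2.32%. T cells of reaction 2 gave 1 of 32, BCL3 (0.44 ± 0.17), against 5.69%, and NK cells 3 of 28, MAP3K8 (0.58 ± 0.16), PLAUR (1.28 ± 0.50) and NFKB1 (0.27 ± 0.12), against 4.25%. The median over the members was 0.05 in T cells and 0.0048 in NK cells of reaction 1, and 0.04 and 0.15 in those of reaction 2.

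The difference between the reactions was tested as an interaction of treatment and reaction, on the same 14 mice as above. In monocytes all 35 tested members were more positive in reaction 2, with a median of 0.83, and 21 were so at an unadjusted p under 0.05, against 3.66% of genes. None passed the adjusted threshold by edgeR (0.00% of genes), and DESeq2 called 7, where 29 of 10152 genes were called. The lowest adjusted p was 0.0799, shared by TNFAIP3 (1.42 ± 0.23), NFKBIA (1.12 ± 0.21), TNFAIP8 (0.98 ± 0.19) and ICAM1 (0.96 ± 0.19). NFKB1 (1.17 ± 0.26) and TNIP3 (3.01 ± 0.69) followed at 0.129, and TNIP3 was low throughout, at 4.02 to 25.3 CPM. Without untreated mouse 1 of reaction 2, 4 members passed, where 13 of 10518 genes did. Without untreated mouse 2 of reaction 1 no member passed.

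In macrophages all 35 were more positive in reaction 2 (median 0.56) and 13 were so at an unadjusted p under 0.05, against 4.04% of genes. Without untreated mouse 1 of reaction 2 the median was 0.90. Then 23 of 36 members had an unadjusted p under 0.05 in either direction, against 1249 of 12647 genes. Without untreated mouse 2 of reaction 1 the median was 0.46, with 10 of 35 members at that unadjusted level, against 928 of 12245 genes. No member passed the adjusted test in either of these fits. RELB (1.04 ± 0.24, adjusted p = 0.504) came first, and DESeq2 called this member alone, where 10 of 12320 genes were called. In dendritic cells 28 of 33 were positive and 9 passed the unadjusted threshold, against 3.44%. T cells gave 1 of 32, against 3.71%, and NK cells 1 of 27, against 3.27%, and 0 passed the adjusted test in any of these 4 classes by edgeR (0.00%). Over both reactions with the reaction as a block, the median was 0.0012 in monocytes, -0.09 in macrophages and -0.10 in dendritic cells, and no member passed. The reactions differ in depth, in the share of barcodes called to 1 mouse, in NK and T cell markers in macrophages and in mice at once. These cannot be told apart here.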

How the data were processed

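For each of 2 reactions of droplet 3' RNA-seq the authors deposited UMI counts per gene and hashtag for barcodes called as cells, made with Cell Ranger 9.0.1 on GRCh38, per the labels, and not normalized. The submitters' notes also name Seurat 5.1.0. The sample labels do not give the treatment of a hashtag, which was taken from the hashtag names listed with the genes. Cells were assigned to mice with HTODemux in Seurat 5.3.0 at quantile 0.99, which removes doublets between mice but not within a mouse, and kept with 601 to 6000 genes and under 12.5% mitochondrial UMIs. Classes were gated on marker UMIs with thresholds set after seeing the markers. UMIs were summed per mouse and class (at least 10 cells) and tested with edgeR 4.0.16 (filterByExpr, TMM, quasi-likelihood, Benjamini-Hochberg over all genes), checked on simulated data, with DESeq2 1.42.0 as an alternative, under R 4.3.3 and Python 3.11.15. SE is the size of the log2 fold change over the root of F. Always named were NFKBIA, NFKBIZ, NFKB1, RELB, TNFAIP3, BIRC3, TNF, IL6, BCL2A1 and CD83, then the members past the threshold or with the lowest p in each comparison. The members and lists were chosen with earlier results of these data known. Mice within a reaction are the replicates, and intervals are exact at 95%.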

Additional observations from a re-analysis of the deposited data

Results flagged for a closer look

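In 4 of the 50 groups of 4 mice looked at, 1 mouse lay apart from the other 3 by Dixon's test, where chance gives about 1 in 20. RELB in macrophages of maraviroc mice of reaction 2 had 1 low mouse at 76.7 CPM. The 38 genes summed in monocytes had 1 high untreated mouse in reaction 1, at 8524, and 1 high maraviroc mouse in reaction 2, at 8877. Summed in NK cells, they had 1 high maraviroc mouse in reaction 2, at 7120.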

How the results depend on the processing

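No named gene past the threshold changed direction. The median over the members turned from -0.52 to 0.0012 in monocytes of reaction 1, and from 0.15 to -0.09 in macrophages and 0.23 to -0.10 in dendritic cells of reaction 2, when both reactions were fitted with the reaction as a block. For mature against CD1C dendritic cells it turned from 0.37 to -0.11 without the filter on low counts. All genes with at least 1 count were also fitted, without a low-count filter. The members past the adjusted threshold follow, with all genes called and tested in brackets. In reaction 1 they were 13 in macrophages (206 of 24137), 9 in monocytes (85 of 20954), 3 in dendritic cells (292 of 18585) and 2 in T cells (38 of 22372). In reaction 2 they were 1 in macrophages (114 of 24290), 7 in monocytes (101 of 22567), 2 in dendritic cells (167 of 20793) and 2 in NK cells (56 of 20225). In the interaction they were 13 in macrophages (259 of 26245), 16 in monocytes (150 of 23994) and 4 in dendritic cells (129 of 22031). DESeq2 gave 5 in macrophages (24 of 11526) and 6 in monocytes (16 of 8614) of reaction 1. In the interaction it gave 1 for macrophages (10 of 12320) and 7 for monocytes (29 of 10152), and for CXCL10 macrophages 5 (747 of 9044). For monocytes of reaction 1 the count of 2 became 0 above 1000 genes per cell (1 of 8505) and 1 at hashtag quantile 0.95 (3 of 8077). It became 0 with both reactions and the reaction as a block (0 of 9677), and 0 to 1 with 1 mouse left out (0 to 2 genes). For the monocyte interaction the count was 0 to 4 with a mouse left out (0 of 10116 to 13 of 10518). Reaction 1 alone gave 5 for T against NK cells (718 of 8849, and 2711 of 10308 in both reactions). For CXCL10 macrophages it gave 4 (383 of 9436) and reaction 2 alone 3 (355 of 8374), where both reactions had 821 of 9044 genes. Reaction 2 alone gave 0 for hypoxic macrophages (163 of 7686, and 623 of 8657 in both reactions). Hypoxic macrophages gave 2 above 1000 genes (607 of 8501) and 1 to 3 with a mouse left out (362 to 588 genes). MT1G macrophages gave 1 with 1 marker UMI more in the gate (50 of 9095). The cause of these changes was not tested. The gate with 1 UMI more for hypoxic macrophages, reaction 2 alone for MT1G macrophages, reaction 1 alone for mature dendritic cells and the contrast of inflammatory macrophages were not run, as too few mice held both classes. Leaving out mice in the interaction and contrasts, and C1Q macrophages alone, were chosen after seeing the data. Each mouse had 1 treatment and the labels match no untreated mouse to a maraviroc mouse, so treatments were not compared in pairs. Class comparisons were paired by mouse.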
